A study of Mus musculus with 28 samples.

Results

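Insulin-like growth factor (IGF) signaling in the bone marrow niche was followed through 9 genes: the ligands Igf1 and Igf2, the receptors Igf1r and Igf2r, and the binding protein genes Igfbp3, Igfbp4, Igfbp5, Igfbp6 and Igfbp7. They were taken by symbol from the 25251 genes of the deposited table, and all 9 were found. The set was chosen with earlier results of these data known. It leaves out the binding protein genes Igfbp1 and Igfbp2, which are given below with the other pathway genes. RNA came from 3 sorted or separated populations of mice with an internal tandem duplication (ITD) knocked into both alleles of the receptor gene Flt3 (Flt3 ITD/ITD) and of mice with normal Flt3 (Flt3+/+), all on a C57BL/6 background and 8 to 10 wk old. Endothelial cells (ECs) were sorted from bone lining cells as CD31+ and negative for CD45 and Ter119. Mesenchymal stromal cells (MSCs) came from the same fraction by the absence of CD45, Ter119, CD31 and CD166 and the presence of Sca1, and mononuclear cells (MNCs) came from the marrow. Each genotype gave 5 EC, 5 MSC and 4 MNC libraries, which makes 28 libraries, each from 100 cells (ECs and MSCs) or 200 cells (MNCs) of 1 mouse. The knock-in is in the germ line, so ECs and MSCs of Flt3 ITD/ITD mice carry it as well as the blood cells, and the MNCs are a mixture of cell types. The EC and MSC libraries were made in 2 experiments, and which library belongs to which is not given, so no value within an experiment could be had. The sources used here do not state the sex of the mice.

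IGF-1 and IGF-2 are secreted growth factors that act through IGF1R, a tyrosine kinase receptor that signals through the insulin receptor substrates, phosphoinositide 3-kinase and AKT. IGF2R, the cation-independent mannose 6-phosphate receptor, takes up IGF-2 for degradation and carries enzymes to lysosomes. The binding proteins hold IGFs outside the cell and can either prolong their life or keep them from the receptor, IGFBP-6 prefers IGF-2, and IGFBP-7 binds IGFs weakly and is found in the walls of blood vessels. In bone, osteoblasts and stromal cells are known sources of IGFs and of their binding proteins.

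On the mouse GRCm38 build with GENCODE annotation, the 9 genes are protein coding and do not overlap each other. Igf1 lies on the plus strand at chr10:87858265-87937042. Igf2 lies on the minus strand at chr7:142650766-142666816, and Igf1r lies on the plus strand of the same chromosome at chr7:67952827-68233668. Igf2r lies on the minus strand at chr17:12682406-12769664. Igfbp3 (minus strand, chr11:7206086-7213923) and Igfbp4 (plus strand, chr11:99041244-99054392) share a chromosome. Igfbp5 lies on the minus strand at chr1:72857932-72874884, Igfbp6 on the plus strand at chr15:102144362-102149511, and Igfbp7 on the minus strand at chr5:77349240-77408041. Whether the counting used strand is not stated in the sources used here, so reads in the 85 exonic bases that Igfbp7 shares with Polr2b on the other strand, or in the 98 that Igf2 shares with its antisense gene Igf2os, cannot be assigned with certainty. Igf2os had at most 0.23 RPKM in any library. Igf2 also shares 3596 exonic bases on the same strand with the annotated gene Gm49394, which was not used here. The antisense gene Airn overlaps Igf2r without a shared exon and reached 29.3 RPKM.

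The 250 bases before the start sites of 4 binding protein genes are printed here: Igfbp7, Igfbp6 and Igfbp4 gave the largest binding protein level in ECs, MSCs and MNCs, respectively, and Igfbp3 was the only one called higher in ECs than in MSCs. Sequences are from RefSeq (GRCm38.p6), where all 9 genes were found, and are written 5′ to 3′ on the strand of the gene. Capitals mark the letters TATAAA and GGGCGG on either strand.
Igfbp7 (chr5:77408046-77408295, minus strand): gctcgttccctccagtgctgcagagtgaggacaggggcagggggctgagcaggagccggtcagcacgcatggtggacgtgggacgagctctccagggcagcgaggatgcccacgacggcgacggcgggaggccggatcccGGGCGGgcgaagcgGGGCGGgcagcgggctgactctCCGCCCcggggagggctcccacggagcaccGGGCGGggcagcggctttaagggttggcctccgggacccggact
Igfbp6 (chr15:102143936-102144185, plus strand): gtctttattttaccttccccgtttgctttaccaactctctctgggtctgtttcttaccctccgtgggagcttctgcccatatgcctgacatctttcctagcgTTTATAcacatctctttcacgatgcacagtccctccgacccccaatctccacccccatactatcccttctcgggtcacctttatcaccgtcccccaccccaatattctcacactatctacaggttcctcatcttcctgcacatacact
Igfbp4 (chr11:99040994-99041243, plus strand): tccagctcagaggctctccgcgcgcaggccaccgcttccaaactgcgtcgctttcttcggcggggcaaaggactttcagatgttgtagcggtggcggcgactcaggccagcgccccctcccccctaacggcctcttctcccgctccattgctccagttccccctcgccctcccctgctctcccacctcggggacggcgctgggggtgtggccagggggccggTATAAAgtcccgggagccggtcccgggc
Igfbp3 (chr11:7213924-7214173, minus strand): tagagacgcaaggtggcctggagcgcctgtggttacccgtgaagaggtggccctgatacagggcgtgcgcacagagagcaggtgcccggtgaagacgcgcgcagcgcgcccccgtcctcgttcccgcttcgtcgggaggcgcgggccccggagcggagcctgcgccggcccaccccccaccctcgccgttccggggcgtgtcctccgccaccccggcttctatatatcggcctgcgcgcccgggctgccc
The Igfbp7 window holds GGGCGG at 4 places, which begin 110, 96, 74 and 44 bases before the start site, and the other 3 windows hold none. TATAAA begins 28 bases before the start site in Igfbp4 and 148 bases before it in Igfbp6, where the letters are on the opposite strand. All positions are counted from the RefSeq start. The first bases after that start were found in GENCODE transcripts for Igfbp4 and Igfbp3 but not for Igfbp7 and Igfbp6. The Igfbp6 window ends at chr15:102144185, whereas the GENCODE gene starts at 102144362, so its start site is not settled. The letters CCAAT were found in Igfbp6 at 107 and 50 bases before the start. Over the 32851 start sites in the table, windows of this length hold GGGCGG in 32.7%, TATAAA in 12.4% and CCAAT in 33.8% of cases. CG dinucleotides numbered 26 in the Igfbp7 window, 32 in Igfbp3, 22 in Igfbp4 and 7 in Igfbp6, against a median of 6 over all windows. These matches describe the letters only, since no binding or chromatin data were measured.

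Expression is given as RPKM, the read count scaled to transcript length and to the total of the library, so that levels of different genes can be compared. Library totals ranged from 6377013 to 33880743 counts, and a count of 3 was taken as the floor, which allows for counting error only, since the libraries were amplified without molecular identifiers. Of the endothelial markers, 8 of 8 were found in ECs, where they summed to 1811 to 2681 RPKM against at most 24.9 in MSCs and 29.9 in MNCs. Mesenchymal markers summed to 29060 to 33480 RPKM in MSCs. Leukocyte markers summed to 6195 to 9733 RPKM in MNCs and were highest outside MNCs in replicate 2 of the Flt3 ITD/ITD ECs (588.6) and replicate 5 of the Flt3 ITD/ITD MSCs (313). Flt3 itself had 2.53 to 6.96 RPKM in Flt3+/+ MNCs and 6.91 to 14.8 in Flt3 ITD/ITD MNCs and at most 1.37 in any EC or MSC library, and gene counts cannot show the duplication.

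The first question was in which population each gene was expressed. Most of the family was expressed in ECs, in MSCs or in both, and was near 0 in MNCs. Compared with ECs, MSCs had higher levels of Igf1, Igfbp5 and Igfbp6, and ECs had a higher level of Igfbp3. Compared with MNCs, ECs had higher levels of 7 members and MSCs of 8, and no member was higher in MNCs. Igf1r, the signaling receptor, was the exception in that it was not called in any of the 3 comparisons. One edgeR model was fitted to the 28 libraries, with both genotypes of a population weighted equally, and a gene counted as called when its adjusted p-value was under 0.1 and its mean RPKM differed by 1 or more on the log2 scale. Of 9 members tested, 1 was called higher in ECs than in MSCs and 3 higher in MSCs, where 16.3% and 16.6% of all 16897 genes tested were called in these directions. For ECs against MNCs, 7 members were called higher in ECs and 0 in MNCs, where the shares over all genes were 23.1% and 22%. For MSCs against MNCs the numbers were 8 and 0, and the shares were 22.2% and 22%. The median log2 fold change of the members was -0.12 for ECs over MSCs, 5.0 for ECs over MNCs and 9.77 for MSCs over MNCs, and over all genes tested it was -0.01, 0.00 and -0.02. The 3 comparisons share libraries and are not independent. In pools of sorted cells, fewer expressing cells and less RNA per cell cannot be told apart.

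**Figure D1:**
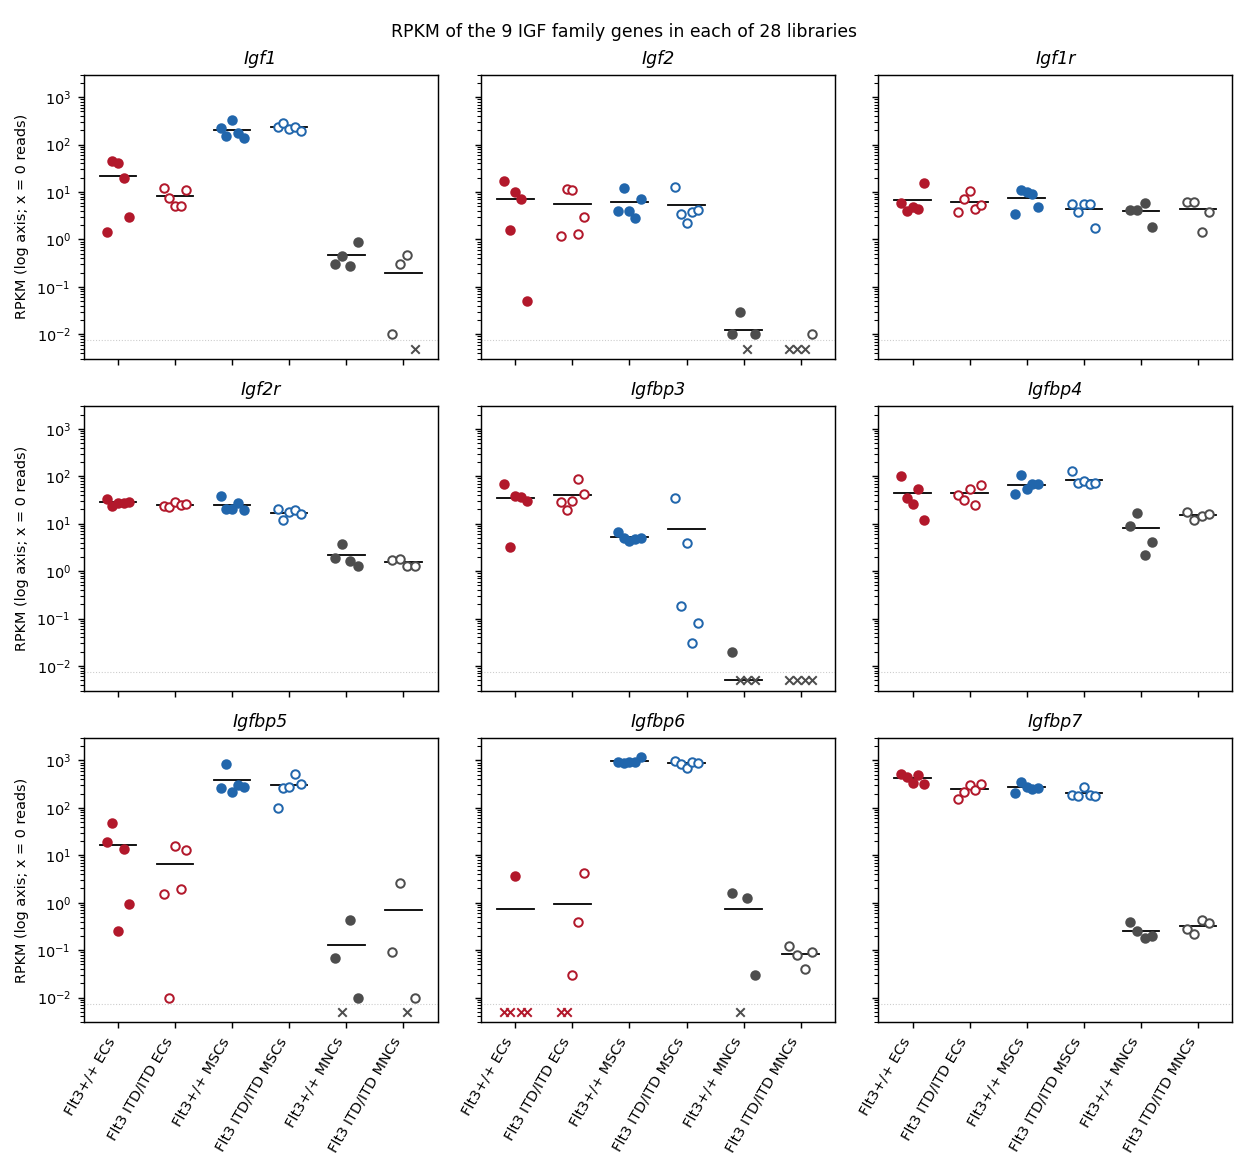
RPKM of each member (panels, logarithmic vertical axis) in the 28 libraries, by population and genotype. Filled points are Flt3+/+ libraries, open points Flt3 ITD/ITD libraries, crosses libraries with a value of 0, and lines group means. Igf1, Igfbp5 and Igfbp6 stand highest in MSCs (Igf1 at 136 to 333), Igfbp7 is high in both ECs and MSCs, and Igf1r lies between 1.44 and 15.5 in every library.

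Igf1, the main growth factor of the pair after birth, was a transcript of MSCs. Its RPKM ran from 136 to 333 over the 10 MSC libraries (median 218), from 1.45 to 44.2 over the 10 EC libraries (median 9.16) and from 0 to 0.87 over the 8 MNC libraries (median 0.30). Every MSC library lay above every EC library, and every EC library lay above every MNC library. The mean of 219 ± 60.1 (SD, n = 10) ranked 440 among all genes in MSCs, and the mean of 15.04 ± 15.6 (SD, n = 10) ranked 4211 in ECs. The log2 fold change of ECs over MSCs was -4.39 (standard error 0.61, adjusted p = 3.83e-06 by edgeR's quasi-likelihood test). ECs exceeded MNCs by 5.71 (standard error 0.73, adjusted p = 5.73e-07) on the same scale.

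Igf2, the growth factor known best from fetal life, was found at a low and similar level in ECs and MSCs. EC libraries ranged from 0.05 to 17.5 RPKM (median 5.12) and MSC libraries from 2.25 to 12.7 (median 3.97), and the ranges overlapped. The log2 fold change of ECs over MSCs was -0.05 with a standard error of 0.63 (adjusted p = 0.98). In MNCs Igf2 had 5 counts in all 8 libraries together and at most 2 in any of them. Per read sequenced, the Igf2 count of ECs was 734 times that of MNCs (exact 95% Poisson interval 314 to 2260), and that of MSCs was 693 times (297 to 2140). These intervals, here and for the other count ratios, take amplified reads summed over libraries as independent, so they cover counting error only and leave out the spread between mice. Igf1 made up 92.6% to 99.0% of the summed RPKM of both ligands in MSCs. In ECs its share ranged from 7.67% to 98.3% (median 78.9%), and Igf2 stood above Igf1 in 3 of the 10 EC libraries.

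Igf1r was expressed at a low level everywhere. EC libraries ranged from 3.73 to 15.5 RPKM (median 5.02), MSC libraries from 1.76 to 10.9 (median 5.57) and MNC libraries from 1.44 to 6.30 (median 4.15). All 3 ranges overlapped. ECs and MSCs differed by -0.11 in log2 fold change (standard error 0.31, adjusted p = 0.83). MSCs exceeded MNCs by 0.67 (standard error 0.33, adjusted p = 0.0991), which was under the fold rule, and ECs exceeded MNCs by 0.56 (standard error 0.33, adjusted p = 0.169).

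Igf2r was shared by ECs and MSCs and low in MNCs. It ranged from 22.2 to 33.2 RPKM in ECs (median 26.3), from 12.0 to 38.7 in MSCs (median 19.8) and from 1.27 to 3.81 in MNCs (median 1.65). Every EC and every MSC library lay above every MNC library. ECs and MSCs differed by 0.12 in log2 fold change (standard error 0.17, adjusted p = 0.638), and the log2 fold change over MNCs was 3.77 (standard error 0.20, adjusted p = 1.61e-13) for ECs and 3.65 (standard error 0.20, adjusted p = 2.13e-13) for MSCs. In ECs Igf2r varied little between mice. Its coefficient of variation there was 11.7% for Flt3+/+ libraries and 10.2% for Flt3 ITD/ITD libraries, where the medians over all genes with a mean of at least 1 RPKM were 67.4% and 65.0%. It varied more in Flt3+/+ MSCs (32.3%, median over genes 48.8%) and in Flt3+/+ MNCs (52.9%, median 31.8%). In Flt3 ITD/ITD libraries the coefficient was 19.2% for MSCs (median 58.4%) and 18.7% for MNCs (median 28.3%).

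Igfbp7 was the binding protein gene with the highest level in ECs and was also high in MSCs. EC libraries ranged from 155 to 514 RPKM (median 315) and MSC libraries from 174 to 360 (median 227), and 3 of 10 EC libraries lay above all MSC libraries. With means of 333 ± 119 (SD, n = 10) and 237 ± 60.2 (SD, n = 10), the gene ranked 289 in ECs and 402 in MSCs, and the log2 fold change between them was 0.22 (standard error 0.16, adjusted p = 0.311). In MNCs it had at most 10 counts in any library and 0.18 to 0.43 RPKM. The count of ECs was 1130 times that of MNCs per read sequenced (exact 95% Poisson interval 860 to 1530, counting error only).

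Igfbp3, which encodes the main IGF carrier in blood plasma, was higher in ECs than in MSCs. EC libraries ranged from 3.18 to 85.8 RPKM (median 33.2) and MSC libraries from 0.03 to 34.3 (median 4.46), and 5 of 10 EC libraries lay above all MSC libraries. ECs exceeded MSCs by 2.35 in log2 fold change (standard error 0.82, adjusted p = 0.0305). Without replicate 1 of the Flt3 ITD/ITD MSCs, which had the highest level among MSCs, the log2 fold change was 3.82. The call was lost in the libraries of either genotype alone, with a log2 fold change of 2.57 (adjusted p = 0.128) in Flt3+/+ and 2.13 (adjusted p = 0.205) in Flt3 ITD/ITD mice. MNCs had 1 Igfbp3 count in 8 libraries, so the ratio of ECs to MNCs of 12500 has an exact 95% Poisson interval from 2240 to 494000, for counting error only.

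Igfbp6 was the most abundant member and the one most restricted to MSCs. All 10 MSC libraries lay between 704 and 1184 RPKM (median 917). In ECs 6 of 10 libraries had no Igfbp6 read and the highest had 4.27 RPKM, and MNC libraries ranged from 0 to 1.63 (median 0.09). The mean in MSCs of 919 ± 118 (SD, n = 10) ranked 107 among all genes. In the test of ECs over MSCs the log2 fold change was -10.31 (standard error 1.29, adjusted p = 7.1e-07), and MSCs exceeded MNCs by 11.95 (standard error 1.54, adjusted p = 5.73e-07). Mice differed little in this gene, with a coefficient of variation of 12.4% among Flt3+/+ MSCs and 11.7% among Flt3 ITD/ITD MSCs, where the medians over all genes were 48.8% and 58.4%.

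Igfbp5, an abundant binding protein of bone, was the other binding protein gene called higher in MSCs than in ECs. MSC libraries ranged from 98.6 to 824 RPKM (median 274), EC libraries from 0.01 to 47.5 (median 7.60) and MNC libraries from 0 to 2.65 (median 0.04). No EC library reached an MSC library, but ECs and MNCs overlapped. The log2 fold change of ECs over MSCs was -5.29 (standard error 1.1, adjusted p = 0.000523). ECs exceeded MNCs by 4.998 (standard error 1.22, adjusted p = 0.00155), and in Flt3 ITD/ITD libraries alone this call was lost at 3.25 (adjusted p = 0.117). The level in ECs was uneven, with a coefficient of variation of 118% among Flt3+/+ mice and 113% among Flt3 ITD/ITD mice.

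Igfbp4, the remaining binding protein gene, was the only one with a clear level in MNCs. MSC libraries ranged from 41.9 to 130 RPKM (median 70.5), EC libraries from 11.9 to 99.4 (median 37.7) and MNC libraries from 2.21 to 17.4 (median 13.2). MSCs lay above all MNCs, and 9 of 10 EC libraries did. Over MNCs, the log2 fold change was 2.93 (standard error 0.37, adjusted p = 3.34e-07) for MSCs and 1.93 (standard error 0.35, adjusted p = 6.7e-05) for ECs. ECs and MSCs differed by -1.01 (standard error 0.31, adjusted p = 0.0148), but the log2 ratio of mean RPKM was -0.77, under the fold rule. Without replicate 1 of the Flt3+/+ ECs, which had the highest Igfbp4 level among ECs, the difference was called at -1.25 (adjusted p = 0.00188).

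As shares of the summed RPKM of the 5 binding protein genes, Igfbp7 was the largest in 10 of 10 EC libraries (68.1% to 87.9%), Igfbp6 in 10 of 10 MSC libraries (41.2% to 68.3%) and Igfbp4 in 8 of 8 MNC libraries (54.4% to 98.5%). The sum itself was 1338 to 2198 RPKM in MSCs, 226 to 702 in ECs and 4.06 to 17.9 in MNCs, so the MNC shares rest on few reads for all genes but Igfbp4. Igfbp5 made up 6.93% to 37.5% of the sum in MSCs, Igfbp3 0.60% to 24.3% in ECs, and Igfbp4 3.33% to 18.1% in ECs.

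**Figure D2:**
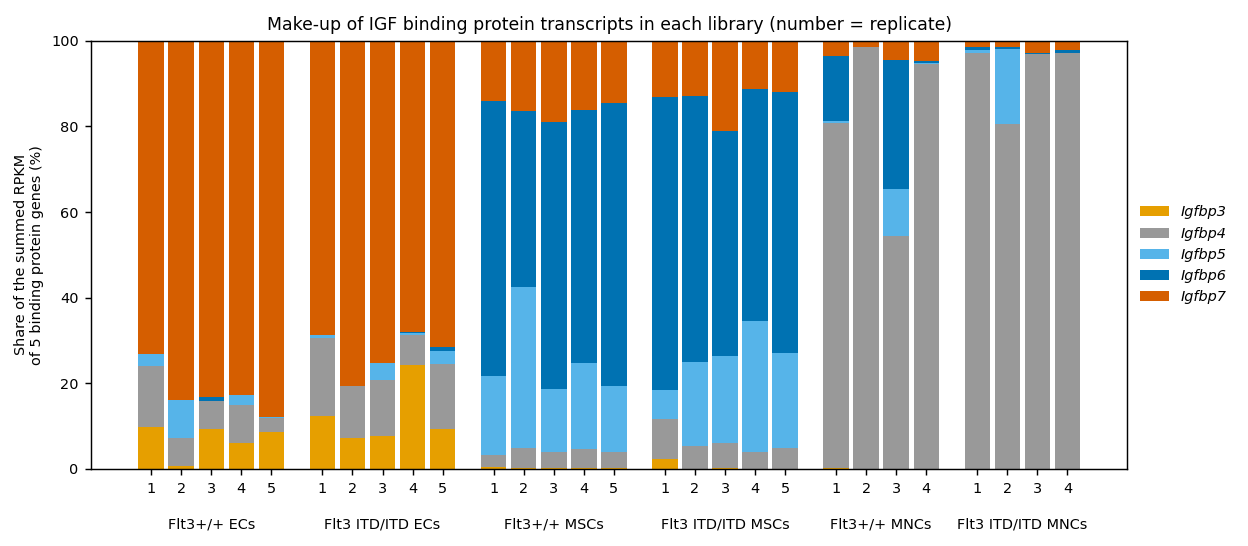
Share of each binding protein gene in the summed RPKM of the 5 genes (vertical axis, percent, from 0 to 100), with 1 bar per library ordered by group and replicate number. Igfbp7 fills 68.1% to 87.9% of each EC bar, Igfbp6 41.2% to 68.3% of each MSC bar and Igfbp4 54.4% to 98.5% of each MNC bar.

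Igf1 and Igfbp5 were also read in ECs, and MSC markers were measured in the same libraries. All 8 mesenchymal markers had reads in ECs of each genotype and summed to 4599 to 6189 RPKM in Flt3+/+ and 3490 to 5571 in Flt3 ITD/ITD ECs, but most of this was Ly6a, which encodes Sca1 and had a mean of 4760 RPKM in ECs and 2760 in MSCs. Leaving out Ly6a was a choice made after its values were seen. Without it, the sum was 0.78 to 92.4 RPKM in ECs and 26300 to 30550 in MSCs. No EC library exceeded 0.324% of the MSC mean of this sum. Most of it in MSCs was Dcn, with a mean of 23900 RPKM against 11.5 in ECs, so the percentage mainly follows Dcn. Means in ECs and MSCs were 1.42 and 18.0 for Pdgfrb, 0.343 and 83.0 for Pdgfra, and 2.44 and 2840 for Lum. Mural markers summed to 153 to 1179 RPKM in ECs and 17.2 to 168 in MSCs. The source of these reads in ECs was not tested. Igf1 in the same EC libraries stood at 0.662% to 20.2% of its MSC mean (median 4.18%), Igfbp5 at 0.00296% to 14.1% (median 2.25%) and Igfbp6 at 0 to 0.465%. The library with the most Igfbp6 among ECs, replicate 5 of Flt3 ITD/ITD, was also the one with the highest marker sum (92.4), whereas the next, replicate 3 of Flt3+/+, had 0.405% of the MSC mean with a marker sum of 0.84. Replicate 2 of Flt3+/+ had the highest Igf1 (44.2) and Igfbp5 (47.5) among ECs and a marker sum of 52.6, and replicate 3 had nearly as much Igf1 (41.3). MNC libraries had 83.8 to 166 RPKM of the full list.

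The second question was whether the family differed between Flt3+/+ and Flt3 ITD/ITD mice. No member was called in any population. In ECs 8 members passed the filter on low counts (all but Igfbp6), in MSCs 9, and in MNCs 4 (Igf1, Igf1r, Igf2r and Igfbp4), while Igf2, Igfbp3, Igfbp5, Igfbp6 and Igfbp7 did not pass there. The share of all tested genes that was called was 0.0081% for ECs, 0.0295% for MSCs and 0.0144% for MNCs. Before adjustment, edgeR gave a p-value below 0.05 to 1 member in ECs, Igfbp7, where 4.99% of all genes were below this value, and to 0 members in MSCs and in MNCs, against 4.24% and 10.4% of all genes. DESeq2 gave an adjusted p-value below 0.1 for Igfbp7 in ECs and for no other member, where 2.78%, 1.44% and 2.97% of all genes with an adjusted p-value were below 0.1 in ECs, MSCs and MNCs. The RPKM values of the genotypes overlapped for every member in every population, whereas the genotypes did not overlap for 1.14% of the genes tested in ECs, for 0.914% of those in MSCs and for 6.71% of those in MNCs. The median log2 fold change of the tested members was -0.25 for ECs, -0.14 for MSCs and -0.42 for MNCs, against -0.01, 0.03 and -0.01 over all genes tested. Exact two-sided permutation tests of mean RPKM were run for 9 members in 3 populations. Of these 27 tests, 2 gave an unadjusted p-value below 0.05, for Igfbp7 in ECs and for Igf2r in MSCs, and the smallest possible p-value was 0.00794 for 5 against 5 libraries and 0.0286 for 4 against 4.

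**Figure D3:**
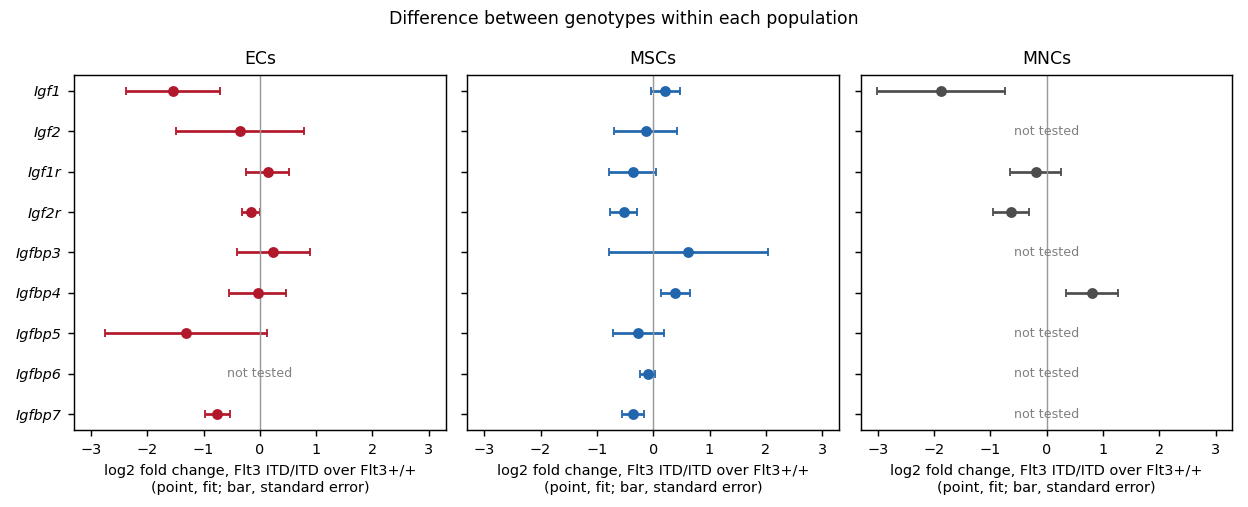
Log2 fold change of Flt3 ITD/ITD over Flt3+/+ mice (horizontal axis) for each member in ECs, MSCs and MNCs, as fitted by edgeR on counts, with bars of 1 standard error. Members marked as not tested had too few counts for the filter. No member was called, and the smallest bar relative to its distance from 0 is that of Igfbp7 in ECs (-0.76, standard error 0.22).

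In ECs, Igfbp7 had 514, 442, 339, 495 and 315 RPKM in the 5 Flt3+/+ libraries and 155, 214, 302, 240 and 315 in the 5 Flt3 ITD/ITD libraries. Of the Flt3 ITD/ITD libraries, 4 lay below all Flt3+/+ libraries, and replicate 5 lay within their range by less than 1 RPKM. The means were 421 ± 90.2 and 245 ± 65.6 (SD, n = 5 each, exact permutation p = 0.0159, unadjusted). The log2 fold change was -0.76 (standard error 0.22, unadjusted p = 0.00584) and the adjusted p-value by edgeR's quasi-likelihood test was 0.868. DESeq2 gave -0.77 with an adjusted p-value of 0.0986, and the log2 ratio of mean RPKM of -0.78 was under the fold rule. In these libraries, endothelial markers summed to 1851 to 2681 RPKM in Flt3+/+ and 1811 to 2467 in Flt3 ITD/ITD mice, mural markers to 274 to 1010 and 153 to 1179, and leukocyte markers to 15.1 to 90.5 and 12.4 to 588.6. Without the library with the most leukocyte markers, the Igfbp7 fold change was -0.72, and it ranged from -0.85 to -0.62 when each library was left out in turn. In MSCs, Igfbp7 had 204, 360, 281, 249 and 260 RPKM in Flt3+/+ and 188, 178, 282, 191 and 174 in Flt3 ITD/ITD libraries. Again 4 Flt3 ITD/ITD libraries lay below all Flt3+/+ libraries, but replicate 3 stood among the highest (log2 fold change -0.36, standard error 0.19, exact permutation p = 0.0873).

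In MSCs, Igf2r had 38.7, 20.7, 20.4, 27.5 and 19.3 RPKM in Flt3+/+ and 19.9, 12.0, 17.4, 19.6 and 15.8 in Flt3 ITD/ITD libraries. All 5 Flt3 ITD/ITD values lay below the Flt3+/+ median, and 3 lay below all Flt3+/+ libraries. Osteoblast markers summed, in the same order, to 3319, 1826, 1898, 2489 and 1794 RPKM in Flt3+/+ and 2824, 155, 1401, 1189 and 527 in Flt3 ITD/ITD MSCs. The libraries with the highest and the lowest Igf2r in each genotype were also those with the highest and the lowest osteoblast sum, and the part of these markers in the Igf2r values was not tested. The means were 25.3 ± 8.18 and 16.9 ± 3.24 (SD, n = 5 each, exact permutation p = 0.0238, unadjusted). The log2 fold change was -0.53 (standard error 0.24, adjusted p = 0.999 by edgeR's quasi-likelihood test), and it was -0.31 without replicate 1 of Flt3+/+, which had the highest level. In ECs the Igf2r means were 28.2 ± 3.32 and 25.0 ± 2.54 RPKM (log2 fold change -0.16, standard error 0.16, adjusted p = 1), and in MNCs they were 2.15 ± 1.14 and 1.53 ± 0.286 (SD, n = 4 each, log2 fold change -0.64, standard error 0.32, adjusted p = 0.513).

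Igf1 had 1.45, 44.2, 41.3, 19.9 and 2.92 RPKM in Flt3+/+ ECs and 12.1, 7.31, 5.14, 5.02 and 11.0 in Flt3 ITD/ITD ECs. The Flt3+/+ libraries split into 3 high and 2 low values that lay on either side of all 5 Flt3 ITD/ITD values. The fold change was -1.54 with a standard error of 0.83 on the log2 scale (adjusted p = 1, exact permutation p = 0.222). In MSCs, Flt3+/+ libraries had 224, 154, 333, 175 and 136 RPKM and Flt3 ITD/ITD libraries 229, 292, 212, 240 and 197. All 5 Flt3 ITD/ITD values were above the Flt3+/+ median and within the Flt3+/+ range (log2 fold change 0.22, standard error 0.25, adjusted p = 0.999). In MNCs, Igf1 was at or below 0.87 RPKM in either genotype (log2 fold change -1.88, standard error 1.14, adjusted p = 0.587). For Igf2 the difference was -0.35 (standard error 1.14) in ECs and -0.14 (standard error 0.57) in MSCs, both at adjusted p-values of at least 0.999, and no fold is given for MNCs, where both genotypes were at the floor.

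Igf1r had 5.84, 3.98, 4.77, 4.39 and 15.5 RPKM in Flt3+/+ and 3.73, 7.22, 10.4, 4.39 and 5.26 in Flt3 ITD/ITD ECs. The ranges overlapped, and the highest value was 1 Flt3+/+ library (log2 fold change 0.14, standard error 0.39, adjusted p = 1). In MSCs it had 3.48, 10.9, 9.90, 9.11 and 4.74 in Flt3+/+ and 5.60, 3.71, 5.53, 5.71 and 1.76 in Flt3 ITD/ITD libraries. All 5 Flt3 ITD/ITD values were below the Flt3+/+ median of 9.11, but 2 Flt3+/+ libraries were as low (log2 fold change -0.37, standard error 0.42, exact permutation p = 0.111). That fold change is from counts, and the log2 ratio of mean RPKM was -0.77, so the measures differed for Igf1r in MSCs too. In MNCs the difference was -0.19 (standard error 0.45, adjusted p = 0.91).

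Igfbp3 in MSCs varied far more between Flt3 ITD/ITD than between Flt3+/+ libraries. Its coefficients of variation were 194% and 17.3%, where the medians over all genes were 58.4% and 48.8%. This difference in spread was not tested. The Flt3+/+ libraries had 6.61, 5.06, 4.28, 4.65 and 5.03 RPKM, whereas the Flt3 ITD/ITD libraries had 34.3, 0.18, 3.88, 0.03 and 0.08. The values of 0.18, 0.03 and 0.08 came from 12, 2 and 2 counts, and those from 2 counts were under the floor of 3. Thus 1 Flt3 ITD/ITD library lay above and 4 lay below all Flt3+/+ libraries, and the means of 5.13 ± 0.889 and 7.70 ± 14.97 (SD, n = 5 each) did not separate (log2 fold change 0.62, standard error 1.41, exact permutation p = 1). Without replicate 1 of Flt3 ITD/ITD the log2 fold change was -2.26 (standard error 1.25), and the gene was not called. Replicate 1 of each genotype had both the highest Igfbp3 and the highest sum of the osteoblast markers given above for Igf2r, and the part of these markers in the Igfbp3 values was not tested. In ECs, Igfbp3 had 69.5, 3.18, 37.96, 35.9 and 30.6 RPKM in Flt3+/+ and 28, 19.4, 30.6, 85.8 and 41.5 in Flt3 ITD/ITD libraries (log2 fold change 0.24, standard error 0.65, adjusted p = 1).

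The other binding protein genes showed no difference beyond the spread between mice. Igfbp4 in MNCs had 8.77, 17.0, 2.21 and 4.09 RPKM in Flt3+/+ and 17.4, 12.2, 14.3 and 16.03 in Flt3 ITD/ITD libraries, with all 4 of the latter above the Flt3+/+ median and only 1 above all Flt3+/+ libraries (log2 fold change 0.81, standard error 0.47, exact permutation p = 0.114). Its difference was -0.04 (standard error 0.51) in ECs and 0.39 (standard error 0.26) in MSCs. Igfbp5 had means of 379 ± 251 and 296 ± 151 RPKM (SD, n = 5 each) in MSCs (log2 fold change -0.27, standard error 0.45, adjusted p = 0.999). In ECs it had 18.7, 47.5, 0.25, 13.8 and 0.92 RPKM in Flt3+/+ and 1.5, 0.01, 15.5, 1.99 and 13.2 in Flt3 ITD/ITD libraries, so 2 Flt3+/+ libraries lay above and 1 Flt3 ITD/ITD library below all of the other genotype (log2 fold change -1.32, standard error 1.44, adjusted p = 1). Without replicate 2 of Flt3+/+ the log2 fold change was -0.34. Igfbp6 in MSCs had 926, 905, 920, 914 and 1184 RPKM in Flt3+/+ and 972, 851, 704, 920 and 895 in Flt3 ITD/ITD libraries, so 3 Flt3 ITD/ITD values lay below all Flt3+/+ values (log2 fold change -0.10, standard error 0.13, adjusted p = 0.999). Igfbp6 was read in 1 Flt3+/+ EC library (3.72 RPKM) and in 3 of the 5 Flt3 ITD/ITD EC libraries (0.03, 0.39 and 4.27). In MNCs Igfbp7 lay between 0.18 and 0.40 RPKM in Flt3+/+ libraries, and the other genotype had 0.22 to 0.43. Igfbp6 reached 1.63 and 0.12 and Igfbp5 reached 0.44 and 2.65 RPKM in MNCs of the 2 genotypes, and the single Igfbp3 count fell in a Flt3+/+ library.

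Whether a genotype effect differed between populations was tested as an interaction in the model of all 28 libraries. All 9 members entered this model because each is well expressed in at least 1 population, but a genotype effect could be measured on both sides for only 8 members (all but Igfbp6) between ECs and MSCs and for only 4 (Igf1, Igf1r, Igf2r and Igfbp4) against MNCs. No member passed at the threshold of 0.1 on the adjusted p-value, where 0.379% of all genes tested passed for ECs against MSCs, 0.0118% for ECs against MNCs and 0.00592% for MSCs against MNCs. No member had an unadjusted p-value below 0.05 by edgeR, against 10.6%, 8.23% and 5.94% of all genes, and none passed by DESeq2, where 5.55%, 2.99% and 2.15% of all genes did. For Igf2, Igfbp3, Igfbp5, Igfbp6 and Igfbp7 against MNCs, and for Igfbp6 between ECs and MSCs, not passing says nothing, since 1 side had too few counts for the filter (standard errors of 2.57 and 2.84 for Igfbp3 against MNCs). The difference between the effects in ECs and in MSCs was -1.78 (standard error 1.08, adjusted p = 0.644) on the log2 scale for Igf1, -0.41 (standard error 0.31, adjusted p = 0.798) for Igfbp7 and 0.35 (standard error 0.33, adjusted p = 0.866) for Igf2r. On the same scale it was 0.496 for Igf1r, -0.22 for Igf2, -0.44 for both Igfbp3 and Igfbp4 and -1.05 for Igfbp5, with standard errors of 0.61 to 1.83. Between ECs and MNCs the difference was 0.34 for Igf1, 0.32 for Igf1r, 0.46 for Igf2r and -0.86 for Igfbp4, and between MSCs and MNCs it was 2.11, -0.17, 0.11 and -0.42 for these genes.

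The members were set beside 42 other genes of the IGF pathway, which cover further binding proteins, proteases, adaptors, kinases and transcription factors. No gene of this list was called between genotypes, of 27 tested in ECs, 32 in MSCs and 28 in MNCs. Between populations, 2 of 36 tested were higher in ECs than in MSCs and 10 were higher in MSCs (median log2 fold change of the list -0.48, against -0.01 over all genes). For ECs against MNCs, 9 were higher in ECs and 5 in MNCs (median 0.05, against 0.00), and for MSCs against MNCs, 12 were higher in MSCs and 2 in MNCs (median 1.04, against -0.02). The shares called over all genes, in the same order, were 16.3% and 16.6%, 23.1% and 22%, and 22.2% and 22%. The binding protein genes Igfbp1 and Igfbp2 were near 0, with no read in MSCs and at most 0.14 and 0.64 RPKM, respectively, in ECs.

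Among the list, 11 genes had the largest called differences in a comparison of populations, taking up to 3 in each direction. Of those that act outside the cell or before the IGF receptor, Stc1, which encodes an inhibitor of the proteases that cleave binding proteins, had 0.46 to 21.0 RPKM in ECs and at most 0.23 in MSCs and 0.04 in MNCs (log2 fold change of ECs over MSCs 6.94, standard error 1.19, adjusted p = 5.91e-05). Htra1, a protease that cleaves binding proteins, had 79.5 to 162 RPKM in MSCs, 0 to 22.3 in ECs and at most 1 count in any MNC library (log2 fold change of ECs over MSCs -4.37, standard error 0.996, adjusted p = 0.00159). Ghr, the growth hormone receptor, which drives Igf1 expression in many tissues, had 24.5 to 51.9 RPKM in MSCs and 3.36 to 19.9 in ECs (log2 fold change of ECs over MSCs -1.77, standard error 0.37, adjusted p = 0.000517) and at most 2 counts in any MNC library.

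Of the receptors and adaptors in the list, Insrr, Shc1, Grb10 and Gab1 were tested between ECs and MSCs and not called. Grb14 was called lower in ECs (log2 fold change -3.94, standard error 1.45, adjusted p = 0.0386 by edgeR), at means of 0.10 RPKM in ECs and 1.21 in MSCs. Over MNCs, Grb10 was called at 6.26 for ECs and 5.64 for MSCs, and Gab1 at 2.62 and 1.83. Shc1 was called at -1.33 for ECs over MNCs and not for MSCs. Insr, the insulin receptor, had 3.59 to 15.1 RPKM in ECs, 0.01 to 2.60 in MSCs and 1.83 to 3.75 in MNCs (log2 fold change of ECs over MSCs 3.02, standard error 0.57, adjusted p = 0.000189). The adaptor Irs1 had 2.34 to 26.7 RPKM in MSCs and 0 to 3.47 in ECs (log2 fold change -5.88, standard error 1.18, adjusted p = 0.000377). Irs2 was low in all populations, with 0.10 to 9.38 RPKM in MSCs, at most 0.70 in MNCs and at most 2 counts in any EC library. The kinase gene Akt2 had means of 3.06 RPKM in ECs, 7.53 in MSCs and 12.3 in MNCs (ECs over MNCs -2.18, standard error 0.58, adjusted p = 0.0035). M6pr, the cation-dependent counterpart of Igf2r, followed the opposite order to Igf2r, with a mean of 178 ± 70.9 RPKM (SD, n = 8) in MNCs against 44.0 ± 13.7 in ECs and 47.4 ± 21.8 (SD, n = 10) in MSCs (MSCs over MNCs -1.75, standard error 0.25, adjusted p = 2.89e-06). Pik3cb, a catalytic subunit of phosphoinositide 3-kinase, was also lower in MSCs than in MNCs (-1.95, standard error 0.88, adjusted p = 0.073). H19, the noncoding neighbor of Igf2, reached 1.91 RPKM in MSCs and 1.25 in ECs (mean 0.125) with no read in MNCs. It was called lower in ECs than in MSCs (-4.235, standard error 1.64, adjusted p = 0.0603 by edgeR). The RNA-binding protein gene Igf2bp2 reached 4.13 in MSCs, 0.86 in MNCs and 0.52 in ECs, where no library had more than 12 counts. For ECs over MNCs it was called at -4.92 (standard error 1.5, adjusted p = 0.0106 by edgeR).

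**Figure D4:**
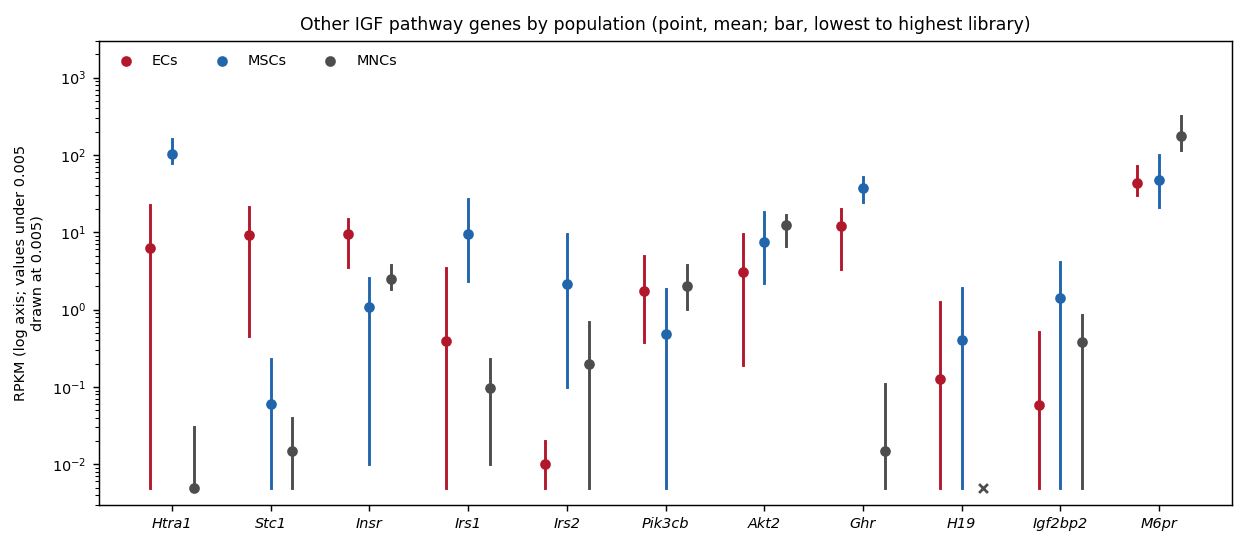
RPKM (logarithmic vertical axis) in ECs, MSCs and MNCs of the 11 pathway genes that were, in at least 1 comparison of populations, among the 3 called genes with the largest log2 fold change in a direction. Points are means, bars run from the lowest to the highest library, values under 0.005 are drawn at 0.005, and a cross marks a mean of 0. Stc1 and Insr stand highest in ECs, Htra1, Irs1, Irs2 and Ghr in MSCs, and M6pr in MNCs (mean 178).

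The genes whose pattern over the 28 libraries was most like each member were found by the mean absolute difference of log2(RPKM + 1), each gene centered on its own mean, among 13727 genes with a mean of at least 1 RPKM. For Igfbp6 they were Angptl7 (0.51) and Mfap5 (0.52), which had means of 1240 and 1110 RPKM in MSCs and at most 1.26 in ECs and MNCs. For both Igf1 (0.79) and Igfbp5 (0.74) the nearest gene was Abi3bp, with a mean of 275 RPKM in MSCs and 4.62 in ECs, followed by Prelp (0.83) for Igf1 and Gpx8 (0.80) for Igfbp5. For Igfbp7 they were S100a16 (0.39) and Ppap2b (0.45), and for Igfbp3 they were Dock9 (0.63), with 36.0 RPKM in ECs and 4.31 in MSCs, and Pxdn (0.69). Hspg2 (0.29) and Cd81 (0.37) were nearest to Igf2r, C030039L03Rik (0.38) and Intu (0.40) to Igf1r, Tgfbr2 (0.59) and Gprc5b (0.62) to Igf2, and Kdelr2 (0.49) and Insig1 (0.50) to Igfbp4. The measure describes levels over these libraries, which differ chiefly by population.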

How the data were processed

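RNA sequencing libraries of sorted ECs and MSCs and of MNCs were grouped by the population, genotype and replicate in their labels. The authors deposited estimated read counts per gene as whole numbers without normalization, made with RSEM after reads of 51 bases had been aligned with Bowtie to mm10 transcripts and reads with more than 1 position had been discarded. The deposited RPKM values of the same genes are printed to 2 decimals. Neither a version of these tools nor the use of strand is given in the sources used here.

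Counts were tested with the quasi-likelihood test of edgeR 4.0.16 in R 4.3.3, with TMM normalization, its filter on low counts and Benjamini-Hochberg adjustment over all genes tested. Genotypes were compared within each population, and populations and interactions were compared in a model of 6 groups. Calls required an adjusted p-value under 0.1 and mean RPKM that differed by 1 or more on the log2 scale. The study used these thresholds but took the adjusted p-value of either DESeq2 or edgeR, whereas calls here used edgeR alone. Standard errors are the fold change divided by the square root of the F statistic. DESeq2 1.42.0 was an alternative. Single genes were compared by exact permutation tests of RPKM in SciPy 1.17.1. Count ratios to MNCs carry exact Poisson intervals, which cover counting error only. Tested on simulated data, the edgeR test recovered 24% of genes changed 4-fold and 43% of those changed 16-fold in ECs, 25% and 65% in MSCs, 53% and 89% in MNCs, and 45% and 76% for ECs against MSCs. The changed genes were drawn at random from all genes tested, and recovery needed only an adjusted p-value under 0.1, without the fold rule.

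Library totals ranged from 6377013 to 33880743 counts. No pair of libraries had identical counts. The members and the lists of pathway and marker genes were chosen with earlier results of these data known. All members were to be named in every comparison. Of the 42 pathway genes, those called between genotypes and up to 3 called genes with the largest change in each direction between populations were to be named, and any further gene was picked with its values known. Macrophage, erythroid and immediate-early markers were also summed. Macrophage markers reached 64.3 RPKM in ECs, 11.7 in MSCs and 543 in MNCs, erythroid markers 97.9, 0.80 and 1681, and immediate-early markers 2587, 3563 and 420. In Flt3+/+ MNCs, immediate-early markers summed to 419.7, 331.9, 24.69 and 20.65 RPKM in replicates 1 to 4. In Flt3 ITD/ITD MNCs they summed to 413.6, 258.2, 29.92 and 17.5. Replicates 1 and 2 thus lay above replicates 3 and 4 in both genotypes, and the source of this was not tested. The EC and MSC libraries came from 2 experiments that the labels do not tell apart.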

Additional observations from a re-analysis of the deposited data

Results flagged for a closer look

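Of 53 groups of 4 or 5 libraries with unequal values of a member, 13 held a library that stood apart from the others by Dixon's test. Its chance level of 5% holds for normally distributed values, which RPKM values need not be. A group with only 1 value above 0 always stands apart by this test. The share over all genes was not computed, so 13 of 53 cannot be read as an excess. In Flt3 ITD/ITD MSCs, replicate 1 stood above the other 4 libraries for Igf2 (12.74 RPKM, others 2.25 to 4.25), Igfbp3 (34.31, others 0.03 to 3.88) and Igfbp4 (129.93, others 68.19 to 77.48), and replicate 3 did for Igfbp7 (281.71, others 174.38 to 190.51). In Flt3+/+ MSCs, replicate 2 stood above the others for Igfbp5 (824.14, others 219.02 to 310.07) and replicate 5 for Igfbp6 (1184.12, others 904.55 to 926.48). In Flt3+/+ ECs, replicate 5 stood above the others for Igf1r (15.46, others 3.98 to 5.84) and replicate 3 for Igfbp6 (3.72 RPKM from 70 counts, others 0). In Flt3 ITD/ITD ECs, replicate 5 did for Igfbp6 (4.27 RPKM from 145 counts, others 0 to 0.39). The remaining 4 values were in MNCs: Igfbp5 in Flt3 ITD/ITD replicate 2 (2.65, from 223 counts) and in Flt3+/+ replicate 3 (0.44, from 26 counts), and a single count each of Igf2 in Flt3 ITD/ITD replicate 4 (0.01) and of Igfbp3 in Flt3+/+ replicate 1 (0.02).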

How the results depend on the processing

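The number of members called kept to within 1.5 times its value in each comparison of genotypes, populations and interactions under DESeq2, median-of-ratios size factors, no filter on low counts, the replicate block, and leaving out each library in turn, which gave 4 to 5 members for ECs against MSCs. The same held with the adjusted p-value alone, run for genotypes and populations, and for the fit on 2 populations, the libraries of 1 genotype and leaving out the libraries with the most leukocyte markers, which were run for populations only. Over all genes, DESeq2 with the same fold rule called 2.58%, 1.29% and 2.14% between genotypes in ECs, MSCs and MNCs, where edgeR called 0.0081%, 0.0295% and 0.0144%. Deviations of libraries with the same replicate number had correlations of -0.07 to 0.07, all under the 0.1 set for pairing. The best match in the other genotype had the same number for 3 of 5 EC and 3 of 5 MSC replicates. For MNCs this held for 1 of 4 replicates. Between populations of a genotype it held for at most 1 replicate in each pairing. Immediate-early markers were higher in MNC replicates 1 and 2 than in replicates 3 and 4 of both genotypes. Whether the numbers mark a shared experiment was not tested. A fit with the replicate block moved no count of calls. Log2 fold changes that turned were all of uncalled differences, and the cause was not tested. With no filter, Igfbp4 between genotypes in ECs was 0.0048. With the replicate block, the genotype difference was 0.27 for Igf2 and 0.16 for Igfbp4 in ECs and -3.43 for Igfbp3 in MSCs, the interaction was 3.55 for Igfbp3 (ECs against MSCs) and 0.017 for Igf1r (MSCs against MNCs), and Igfbp6 of ECs over MNCs was -0.29. ECs over MSCs was 0.056 for Igf2 and -0.056 for Igf2r in Flt3+/+ libraries alone and 0.13 for Igf1r in Flt3 ITD/ITD libraries alone, and Igfbp6 of ECs over MNCs was -0.15 in Flt3+/+ libraries alone. Leaving out each library in turn, genotype differences ranged in ECs from -0.80 to 0.28 (Igf2), -0.28 to 0.49 (Igfbp4), -0.23 to 0.63 (Igfbp3) and -0.16 to 0.36 (Igf1r), in MSCs from -0.74 to 0.29 (Igf2), -0.62 to 0.22 (Igfbp5) and -2.26 to 0.94 (Igfbp3), and in MNCs from -0.44 to 0.15 (Igf1r). ECs over MSCs ranged from -0.35 to 0.26 (Igf2) and -0.25 to 0.022 (Igf1r), and ECs over MNCs from -2.01 to 1.99 (Igfbp6). Interactions ranged from -0.68 to 0.43 (Igf2), -0.66 to 0.10 (Igfbp4), -2.93 to 7.76 (Igfbp6) and -0.90 to 2.49 (Igfbp3) for ECs against MSCs, from -0.0066 to 0.57 (Igf1r), -0.35 to 0.97 (Igf1) and -5.73 to 0.74 (Igfbp5) for ECs against MNCs, and from -0.51 to 0.10 (Igf1r), -0.47 to 2.81 (Igfbp3), -0.21 to 0.32 (Igf2r) and -4.68 to 1.79 (Igfbp5) for MSCs against MNCs. With 4 or 5 libraries per genotype, the test recovered 24% of simulated 4-fold changes in ECs, 25% in MSCs and 53% in MNCs, so real differences of that size can be missed. These rates are for genes drawn at random, not for the members. Standard errors of the members between genotypes ran from 0.13 (Igfbp6 in MSCs) to 1.44 (Igfbp5 in ECs), so what can be missed differs by gene.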
